A study of Mus musculus with 2 samples.

Results

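The respiratory chain and ATP synthase make most of the ATP of aerobic cells, and their nuclear-encoded subunits were examined here in mouse bone marrow neutrophils. Members were the genes whose probe sets carry a single annotated symbol of the Nduf, Sdh, Uqcr, Cyc1, Cycs, Cox or Atp5 subunit families. The rule used names only and no measured value. It found 83 genes among 18193 on the array, with 169 probe sets: 35 of complex I, 4 of complex II, 9 of complex III, 17 of complex IV, 17 of complex V, and Cycs, the cytochrome c that carries electrons between complexes III and IV. The probe set with the highest mean signal stood for its gene.

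The cells were neutrophils sorted by flow cytometry as CD11b+ Ly6Clo Ly6G+ from bone marrow of Jdp2 KO mice and of Jdp2 WT mice, all on a C57BL/6 /129/J mixed background. Total RNA was measured on Affymetrix arrays with 1 array per genotype, so there are no replicates, no p-value can be given, and precision is limited by the number of arrays. The sources used here do not give the age of the mice, the deleted part of Jdp2, or whether RNA was pooled over mice. Jdp2 encodes a leucine-zipper repressor of the AP-1 group. Its stronger probe set read 12.38 on the KO-labelled array and 12.00 on the WT-labelled array on the log2 signal scale, so the targeted gene did not check the labels and the arrays are called by their labels throughout.

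As background, complex I takes electrons from NADH and complex II from succinate. Complex III passes them through cytochrome c to complex IV, which reduces oxygen, and complexes I, III and IV pump protons that drive complex V, the ATP synthase. Mature neutrophils hold few mitochondria and draw most of their ATP from glycolysis, while their dividing bone marrow precursors use oxidative phosphorylation more.

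The probe sets of the machinery gave strong signal that was close to equal on both arrays. Of the 83 genes, 72 reached the 75th percentile of both arrays, and 48 reached the 90th percentile of both. By the higher of the 2 values alone, 72 and 51 members reached these limits, beside 6298 and 2919 of all 18193 genes. Percentiles are over all probe sets, while each gene is read by its strongest probe set, which lifts such counts. Signals of different probe sets are not on one scale. The level filter kept genes whose higher value reached the median of its array (5.67 for KO and 5.65 for WT), and it kept 80 members. None of the 80 differed by 2-fold (a log2 difference of 1) in either direction, beside 5.39% of all 11168 genes that passed, 3.06% higher and 2.33% lower. A log2 difference (KO minus WT) of 0.5 or more was seen in 3 members, Cox7b2, Cox8c and Ndufb1, beside 10.4% of all genes, and one of -0.5 or less in 1 member, Ndufv1, beside 11.6%.

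The differences of the members lay close around the middle of all genes. Their median was -0.05 with quartiles of -0.15 and 0.06, beside a median of -0.04 and quartiles of -0.27 and 0.20 for all genes that passed. Of the 80 members, 50 lay below 0 and 30 above, beside 55.1% below and 44.8% above for all genes. Differences within 0.25 of 0 were seen in 68 members (85.0%), beside 51.6% of all genes. Differences of all genes narrowed with level, as the plot of difference against level shows. Among genes at or above the 90th percentile of an array, a limit chosen after the data were seen, 49 of 51 members lay within 0.25, beside 75.7% of 2919 genes.

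**Figure D1:**
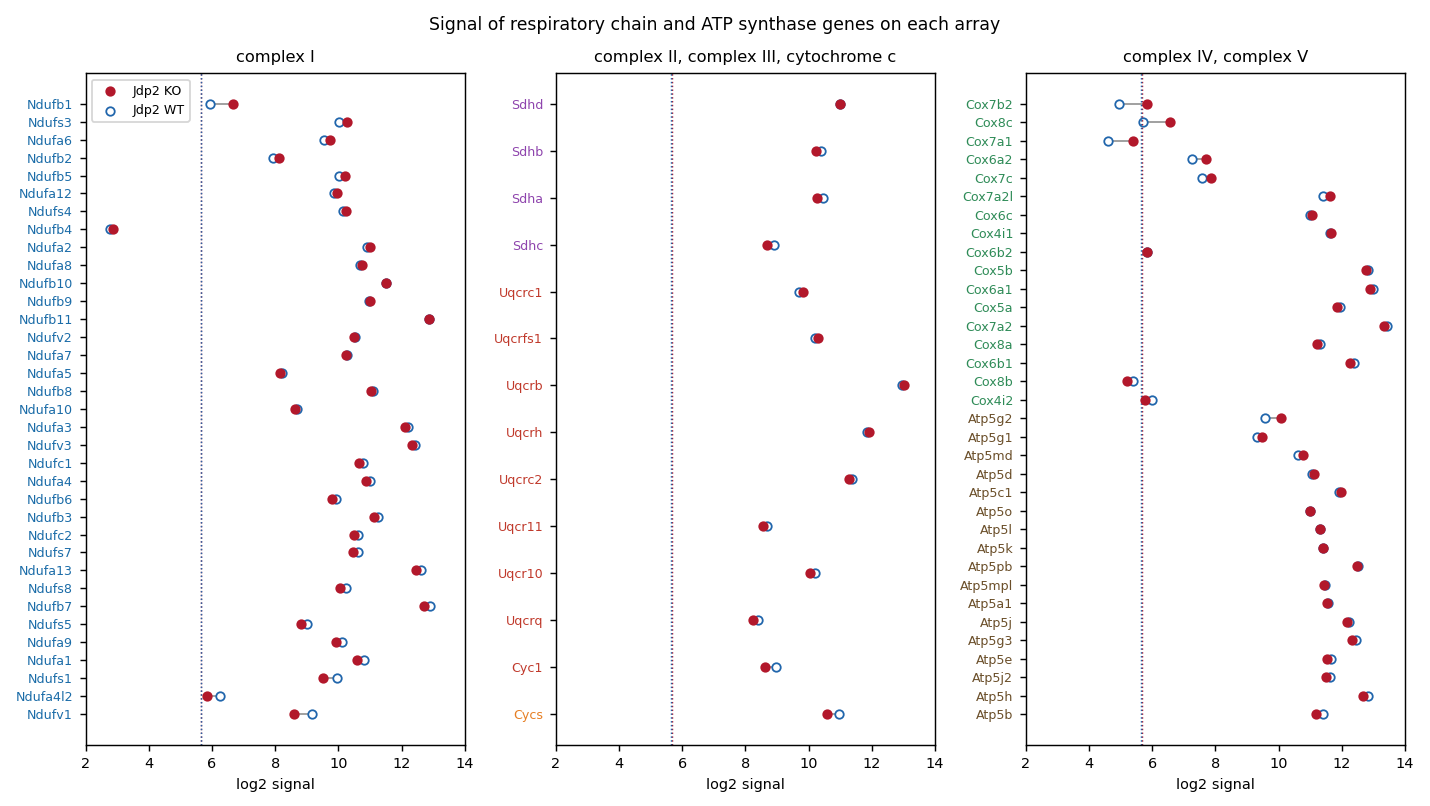
Log2 signal of the 83 genes (rows, ordered within each complex by difference) on the KO-labelled array (filled red) and the WT-labelled array (open blue), with dotted lines at the array medians of 5.67 and 5.65. Most pairs of points overlap far to the right of the medians, and the weak rows are mainly tissue-restricted forms such as Cox7b2, Cox8c, Cox7a1 and Cox4i2.

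**Figure D2:**
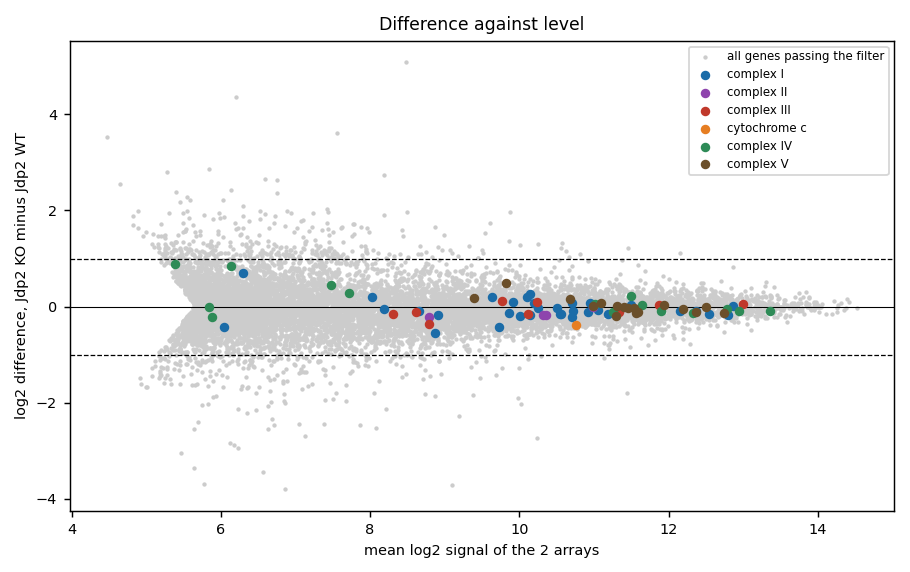
Log2 difference (KO minus WT) against mean log2 signal for 11168 genes (grey) and 80 members (coloured by complex), with dashed lines at 1 and -1. The grey cloud narrows with level, no coloured point passes a dashed line, and the highest coloured points are at weak signal.

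Promoters are shown for 3 members whose values the results below turn on: Ndufv1, the lowest member, Cycs, and Atp5g2, the highest member with strong signal. Sequences are RefSeq windows of build GRCm38.p6 that run from 250 bases before to 50 bases after the gene start, 5′ to 3′ on the gene's strand (minus for all 3). Ndufv1 is at chr19:4012706-4013005, Cycs at chr6:50566520-50566819 and Atp5g2 at chr15:102670998-102671297. Capitals mark the motifs found.
Ndufv1: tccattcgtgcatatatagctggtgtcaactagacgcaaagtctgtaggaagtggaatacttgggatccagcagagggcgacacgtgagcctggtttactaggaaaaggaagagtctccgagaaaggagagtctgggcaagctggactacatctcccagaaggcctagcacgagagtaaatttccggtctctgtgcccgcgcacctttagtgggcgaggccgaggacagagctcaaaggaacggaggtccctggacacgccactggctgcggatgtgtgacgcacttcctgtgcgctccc
Cycs: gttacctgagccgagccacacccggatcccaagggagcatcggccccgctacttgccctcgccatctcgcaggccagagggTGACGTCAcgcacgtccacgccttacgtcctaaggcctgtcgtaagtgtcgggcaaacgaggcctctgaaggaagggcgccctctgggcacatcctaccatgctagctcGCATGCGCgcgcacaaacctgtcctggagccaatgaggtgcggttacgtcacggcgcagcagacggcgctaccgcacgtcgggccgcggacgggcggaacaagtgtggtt
Atp5g2: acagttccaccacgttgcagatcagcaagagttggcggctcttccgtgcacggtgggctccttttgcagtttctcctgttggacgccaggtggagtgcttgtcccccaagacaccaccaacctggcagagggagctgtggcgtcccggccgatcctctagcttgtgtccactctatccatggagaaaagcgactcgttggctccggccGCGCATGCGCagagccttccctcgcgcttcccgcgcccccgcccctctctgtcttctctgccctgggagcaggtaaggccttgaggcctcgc
NRF-1 (nuclear respiratory factor 1), GABP and YY1 are transcription factors known for binding promoters of respiratory chain genes, and Jdp2 is known to bind CRE and AP-1 sites. The letters searched on both strands were GCATGCGC for the NRF-1 core, CCGGAAGT for GABP, AAGATGGC for YY1, TGACGTCA for CRE and TGACTCA for the AP-1 site. The NRF-1 core began 60 bases before the start of Cycs. In Atp5g2 it was found on both strands in overlapping positions, 42 and 40 bases before the start. Cycs also held a CRE 169 bases before its start, and the Ndufv1 window held none of the 5 motifs.

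Promoter windows were listed for 67 of the 83 members. The NRF-1 core was present in 10 of them (14.9%), beside 3.05% of 27025 genes with a window: Atp5g2, Atp5k, Atp5l, Cox6a1, Cycs, Ndufa6, Ndufa8, Sdhb, Uqcr11 and Uqcrc1. GABP letters were present in 5 members (7.46%, beside 4.31% of genes) and YY1 letters in 9 (13.4%, beside 3.19%). The YY1 letters were chosen after a longer form, held by fewer members, had been seen, so that share was not fixed in advance. The CRE was present in 4 members, Cycs, Ndufa10, Ndufb2 and Uqcrfs1 (5.97%, beside 2.03%), and the AP-1 site in 6 (8.96%, beside 5.95%). Members with the NRF-1 core had a median difference of 0.00 over 10 genes, and those without had -0.08 over 54. The 4 members with a CRE had a median of 0.00 and the 60 without one had -0.06. Members with the same motif lay on both sides of 0, as Cycs and Atp5g2 show below.

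In complex I, 22 of the 34 members that passed lay below 0 and 12 above, with a median of -0.09. That is 64.7% below, beside 55.1% of all genes that passed and 58.8% of those at or above the 75th percentile. The lowest value of all members was that of Ndufv1, the core subunit that binds FMN and takes electrons from NADH. It read 8.60 on the KO-labelled array and 9.15 on the WT-labelled array, a difference of -0.55 or 1.46-fold lower. Its 3 probe sets, which read the same RNA, differed by -0.55 to -0.64 (mean -0.60, SD 0.046, n = 3 probe sets). The SD describes probe sets on these arrays and not mice.

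Ndufs1, the core iron-sulfur subunit next in the electron path, read 9.52 and 9.94 on the KO-labelled and WT-labelled arrays, a difference of -0.42. Ndufv2, the partner of Ndufv1 in the same NADH-oxidising arm, read 10.49 on KO and 10.52 on WT (-0.02). The neighbouring arm that reduces ubiquinone showed Ndufs3 at 10.27 on KO and 10.01 on WT (0.27), Ndufs7 at 10.47 and 10.63 (-0.16), and Ndufs8 at 10.06 and 10.22 (-0.17). Of the 6 measured core genes of complex I, 5 lay below 0 and Ndufs3 above, with a median of -0.16. The 5 include Ndufv2 at -0.02, and 55.1% of all genes lay below 0.

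The 28 accessory genes of complex I that passed had a median of -0.08, with 17 below and 11 above 0 (60.7% below, beside 55.1%). The highest was Ndufb1, a small membrane-arm subunit with a single probe set, which read 6.65 on KO and 5.94 on WT (0.71). Ndufa6, Ndufb2 and Ndufb5 read higher by 0.20, 0.20 and 0.19. Ndufb11, also of the membrane arm, read 12.87 on both arrays (0.01), and Ndufb7 read 12.72 on KO and 12.89 on WT (-0.17). Ndufb4 read 2.86 on KO and 2.78 on WT at its only probe set with a single symbol and did not pass the filter.

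Some probe sets of a gene disagreed. Ndufs4, an accessory subunit, had its strongest probe set at 10.24 on KO and 10.15 on WT (0.08), while a weaker one read 5.29 and 6.42 (-1.13). This was the only 1 of 151 member probe sets past the filter to differ by 2-fold. Ndufc1 differed by -0.10 at its strong probe set and by -0.69 at a weaker one. The 6 probe sets of Ndufs8 ran from -0.51 to -0.06.

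All 4 genes of complex II, which are also enzymes of the citric acid cycle, lay at or below 0, beside 55.1% of all genes below 0. The flavoprotein Sdha read 10.26 on the KO-labelled array and 10.45 on the WT-labelled array (-0.18). The iron-sulfur subunit Sdhb read 10.24 and 10.41 (-0.17), and the membrane anchor Sdhc read 8.68 and 8.89 (-0.21). The other anchor, Sdhd, read 10.99 on both (0.00). Each of these lay within the middle 50% of all genes, and a second strong probe set of Sdha differed by 0.06.

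Members of complex III lay on both sides of 0. Cyc1, the cytochrome c1 that hands electrons to cytochrome c, read 8.61 on KO and 8.96 on WT (-0.35). The Rieske iron-sulfur protein gene Uqcrfs1 read 10.28 on KO and 10.19 on WT (0.09), and the core proteins Uqcrc1 and Uqcrc2 differed by 0.12 and -0.11. Of the 9 genes, 5 lay below 0 and 4 above (55.6% below, beside 55.1% of all genes). Weaker probe sets of the small subunits Uqcr10 and Uqcrq differed by as much as -0.98 and -0.64, against -0.15 and -0.16 at their strongest probe sets.

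Cytochrome c, encoded by Cycs, carries electrons from Cyc1 to complex IV and is also released from mitochondria in apoptosis. It read 10.58 on the KO-labelled array and 10.95 on the WT-labelled array, a difference of -0.37 or 1.30-fold lower. All 3 probe sets that passed lay below 0, from -0.37 to -0.23 (SD 0.071, n = 3 probe sets). Cycs and Cyc1, which act next to each other, were both lower in KO by similar amounts. Cyc1 had a single probe set. The Cycs window printed above holds both an NRF-1 core and a CRE, and the part of either in its value was not tested. The other members with a CRE, Ndufb2, Uqcrfs1 and Ndufa10, differed by 0.20, 0.09 and -0.09.

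In complex IV most widely expressed forms lay within 0.25 of 0. Cox4i1 read 11.67 on KO and 11.64 on WT (0.03), and Cox5a read 11.85 and 11.95 (-0.10). Cox6a1, Cox6b1, Cox7a2 and Cox8a differed by -0.08, -0.12, -0.10 and -0.11. The exception among them was Cox7c, which read 7.86 on KO and 7.58 on WT (0.28). Cox7a2l, known for joining complexes III and IV into supercomplexes, read 11.62 on KO and 11.39 on WT (0.23). Its 3 probe sets ran from 0.23 to 0.25 (SD 0.011, n = 3 probe sets).

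Most tissue-restricted forms of complex IV read near or under the array medians, and the members with the widest differences were among them. Cox8c and Cox7b2, known from testis, read 6.56 against 5.71 (0.85) and 5.83 against 4.95 (0.88), KO against WT. With values under an array median raised to that median, Cox7b2 came to 1.13-fold, where it read 1.84-fold before. Of the heart and muscle forms, Cox6a2 read 7.70 on KO and 7.26 on WT (0.44), Cox7a1 read 5.38 and 4.60 (0.78) and Cox8b read 5.20 and 5.41 (-0.21). Cox7a1 and Cox8b did not pass the filter. Cox4i2, the lung and hypoxia form, read 5.77 on KO and 5.99 on WT (-0.22), and Cox6b2 read 5.84 on both. Ndufa4l2, a hypoxia-induced relative of Ndufa4, read 5.83 on KO and 6.26 on WT (-0.43), while Ndufa4, named for complex I but now assigned to complex IV, read 10.87 and 10.98 (-0.11). Weak signals on such arrays hold background as well as transcript, so values near the array median do not show that a restricted form is made.

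Complex V differed little, with 16 of 17 genes (94.1%) within 0.25 of 0 and a median of -0.02. The share within 0.25 was 51.6% over all genes. It was 75.7% over genes at or above the 90th percentile, where most complex V genes lay. The catalytic head genes Atp5a1 and Atp5b read 11.51 on KO and 11.55 on WT (-0.04), and 11.19 on KO and 11.39 on WT (-0.20). The rotor shaft gene Atp5c1 differed by 0.04 and the peripheral stalk gene Atp5pb by -0.02. The exception was Atp5g2, 1 of 3 genes for the membrane ring subunit c, whose mature proteins are identical. Atp5g2 read 10.06 on KO and 9.57 on WT (0.49, 1.40-fold higher), Atp5g1 read 9.48 and 9.30 (0.18), and Atp5g3 read 12.32 and 12.43 (-0.11). The other probe sets of Atp5g2 were near the bottom of the scale (4.09 on KO and 4.11 on WT, and 2.56 on both) and do not bear on it. Atp5j2 had probe sets on both sides of 0, from -0.13 at the strongest to 0.67 at the weakest.

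**Figure D3:**
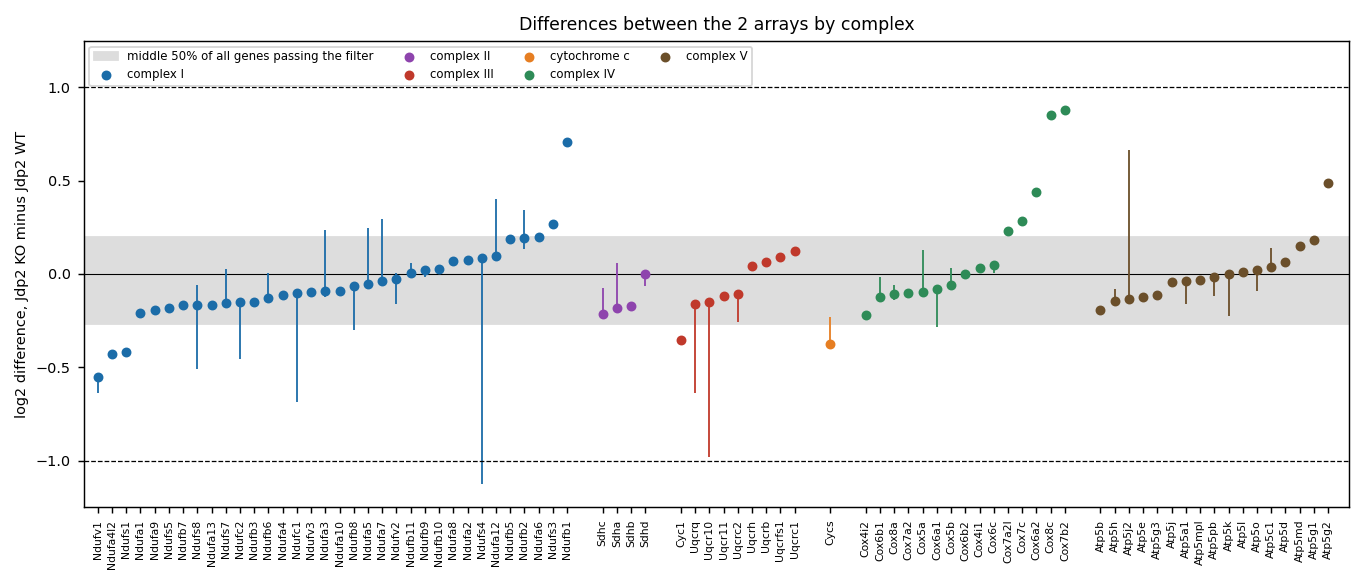
Log2 difference (KO minus WT) of the 80 members by complex, each point 1 gene and each vertical line the range over its probe sets that passed, with the middle 50% of all genes in grey and dashed lines at 1 and -1. The points of Ndufv1, Ndufs1, Ndufa4l2, Cyc1 and Cycs lie below the grey band. Atp5g2 lies above it, as do Cox7b2, Cox8c, Ndufb1, Cox6a2, Cox7c, Ndufs3 and Cox7a2l. The long lines of Ndufs4 and Atp5j2 cross 0.

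Where several probe sets of a gene passed the filter, which was so for 43 members, all of them had the same sign in 29 and mixed signs in 14. The pooled SD of the difference over probe sets of a gene was 0.188, so single-gene differences under about that size lie within the spread between probe sets. This SD does not measure spread between mice or arrays, so a larger difference is not shown to exceed that spread. The mitochondrial genome encodes other subunits, of which the array listed ND5 of complex I at 12.51 on KO and 12.49 on WT (0.02). A further 9 probe sets were annotated with several symbols, at least 1 of them of these families. They belong to no member here and differed by -0.84 to 0.38. The lowest, shared by Ndufa11 and Ndufa11b of the complex I family, read 8.14 on KO and 8.98 on WT (1.79-fold lower), a wider difference than that of Ndufv1. Its other probe set differed by 0.20 at weak signal. The 2 probe sets shared by Ndufb4 and its relatives read 10.94 on KO and 10.98 on WT (-0.04), and 9.20 and 9.56 (-0.36).

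The assembly factors, which build the complexes but are not part of them, leaned towards lower values in KO. Of 34 factors that passed, 27 lay below 0 and 7 above, beside 55.1% below 0 for all genes. The median was -0.26, and the median stayed below 0 under all 3 other scalings (-0.28 to -0.20). None reached 2-fold. Atpaf1, which assembles the catalytic head of ATP synthase, read 5.90 on KO and 6.66 on WT (-0.77). Cox11, which inserts copper into complex IV, differed by -0.62, Ndufaf3 of complex I assembly by -0.59, and Ndufaf7 in the other direction by 0.74. Among factors at or above the 75th percentile the median was -0.10 over 17 genes.

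Other mitochondrial lists showed medians near that of the subunits. Mitochondrial ribosomal proteins had a median of -0.04 over 74 genes, with 40 below 0 (54.1%, beside 55.1% of all genes), and no gene at 2-fold. The sign of this median turned under quantile and loess scaling (0.01 and 0.02). Citric acid cycle enzymes had a median of -0.05 over 15 genes, led by Dlat of pyruvate dehydrogenase (-1.10), Idh3a (0.77, with its WT value under the array median), Ogdh (-0.56) and Sucla2 (-0.49). Genes of mitochondrial protein import had a median of 0.04 over 19 genes, which turned sign with the mean of all probe sets (-0.03) and without shared probe sets (-0.02), and a single gene past 2-fold, Timm9 (2.38). Timm9 read 6.59 on KO and 4.21 on WT, or 1.92-fold once the weak value was set to the array median.

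Of the lists outside mitochondria, cytosolic ribosomal proteins had a median of 0.24 over 44 genes, 40 of them above 0, beside 44.8% of all genes. Glycolysis genes had a median of -0.14 over 15 genes, 12 of them below 0 (80%, beside 55.1% of all genes), with Ldha at -0.68 and Hk2 at -0.50. Pfkm differed by -1.14 at weak signal, or 1.02-fold lower once the weak value was set to the array median. No difference between these lists was tested.

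**Figure D4:**
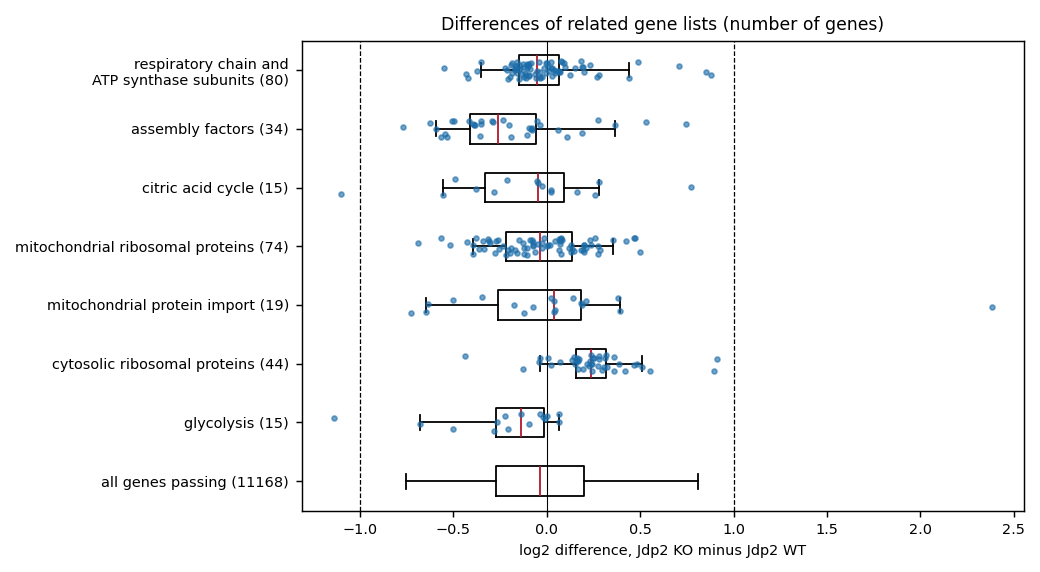
Log2 difference (KO minus WT) of the genes in each list, with boxes from the first to the third quartile, a red line at the median, whiskers at the 5th and 95th percentile, and points for single genes (not drawn for all genes). Subunits have a median of -0.05, assembly factors -0.26, cytosolic ribosomal proteins 0.24 and glycolysis genes -0.14.

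The neutrophil label fitted its markers on both arrays, and markers of other cells differed between them. All 11 measured neutrophil markers lay above the array medians, with 5 higher and 6 lower in KO, and their summed linear signal was 170166 on KO and 169383 on WT. Ly6g, used in the sort, was not among the measured genes. The sum rests mainly on probe sets near the array maxima (14.56 on KO and 14.54 on WT), so it says little about weaker markers. Of these, Itgam differed by -0.43, Csf3r by -0.30 and Cxcr2 by 0.24. Markers of monocytes and macrophages were higher in KO in 14 of 15 genes that passed, beside 44.8% of all genes. The filter asks for the higher value only. Of the 16 measured genes, 14 reached the array median on KO and 10 on WT, so some passed through their KO value alone. A measured gene that did not pass was lower in KO (-0.39). The summed linear signal, which covers all measured genes of a list, was 11053 on KO and 6929 on WT. Primary granule genes of early neutrophil stages were higher in 7 of 8, and 6 were at least 2-fold higher. Their median difference was 1.95. The widest were Mpo at 11.02 on KO and 5.93 on WT (5.09), Ctsg (4.36), Elane (3.62) and Prtn3 (2.86). The value of Mpo was the highest of all genes that passed. With weak WT values set to the array median, Ctsg came to 6.64-fold and Prtn3 to 3.06-fold. In the other direction, 1 gene differed by -0.65. Summed signals were 22619 on KO and 15766 on WT, and they rest mainly on 1 strong gene that differed by 0.21. Of the 8 genes, 7 reached the array median on KO and 6 on WT. Platelet markers were higher in 4 of 6, at 4814 on KO and 2858 on WT. Smaller lists gave 0 of 2 erythroid, 3 of 5 B cell, 4 of 5 T and NK cell and 3 of 8 stem and progenitor markers above 0. Summed signals of these lists were 299 on KO and 461 on WT for erythroid, 1128 and 1528 for B cell, 1634 and 1325 for T and NK cell, and 4302 and 4985 for progenitor markers. Of 9 measured erythroid markers 2 passed the filter, Car2 at 6.43 on KO and 7.72 on WT (-1.29) and Slc4a1 at 6.05 and 6.19 (-0.14). The globin gene Hba-a1, named as a defining marker after its values were seen, read 3.35 on KO and 3.05 on WT. The part of these cells in the values of Ndufv1, Ndufs1, Cycs, Cyc1, Atp5g2 and the assembly factors was not tested, and in bulk RNA fewer cells of a type and less RNA per cell cannot be told apart.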

How the data were processed

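The authors deposited 1 log2 value per probe set and array, which per the submitters' processing notes came from RMA. The sources used here give neither its version nor its background and normalisation steps. Sorted by size, the columns lay within 0.117 of each other at every rank, so the deposited log2 values already shared nearly the same distribution. Array values carry no detection call or depth.

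Of 45037 probe sets without control sets, 34945 had a single symbol in the platform annotation, 932 several and 9160 none. Symbols were compared with a RefSeq gene table (GRCm38.p6) through Entrez identifiers, which changed 0 member symbols. Both value columns were mapped to a sample. With 1 array per group there was no test, and genes were counted by a log2 difference of 1 (2-fold) or 0.5, KO minus WT. The counting was tested on simulated shifts. Every member could be named; of other lists up to 4 genes with the largest absolute difference were named. The members and lists were chosen with earlier results of these data known. Promoters came from RefSeq. The letters searched for YY1 were shortened after a search with a longer form, which fewer members held, had been seen. Alternatives were other level filters, scalings (median, quantile, loess with span 0.3), probe set rules and a raised lower value. Python 3.11.15, pandas 2.3.3, numpy 2.4.6, statsmodels 0.14.6 and matplotlib 3.10.9 were used.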

Additional observations from a re-analysis of the deposited data

How the results depend on the processing

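No member reached 2-fold in either direction under any alternative run. The median of all members ran from -0.07 to -0.03 over the alternatives, and complexes I, II and V stayed below 0. The complex IV median ran from -0.08 to 0.00, above 0 with the mean of all probe sets, and that of complex III from -0.12 to 0.05, above 0 with the filter at the 90th percentile, which was chosen after seeing the data. The small counts at 0.5 moved. Members at least 0.5 higher numbered 0 with the filter at the 75th percentile, 0 at the 90th, both of which leave out the 3 weak genes, and 5 after loess, against 3 in the values as reported. Members at least 0.5 lower numbered 0 at the 90th percentile, 0 after quantile normalisation, 0 after loess, 2 with the mean of all probe sets and 4 without shared probe sets, against 1 as reported. Ndufv1 read -0.46 after quantile normalisation and -0.47 after loess, and Atp5g2 read 0.56 and 0.55. Atp5g2 came to 0.16 and Cycs to -0.19 with the mean of all probe sets, which includes weak ones. Over 864 values of single members under alternatives, 17 moved by the pooled SD of 0.188 or more, in 14 members. Other level filters and updated symbols could not move a member's value, and median scaling shifted all values alike, so the share of 864 says little about stability. The moves were 8 with the mean of all probe sets, 8 without shared probe sets and 1 with the lower value raised. No member with a difference of 0.25 or more changed sign. No paired analysis was possible because each genotype has 1 array. Leaving out a replicate could not be run for the same reason.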

Other observations

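Regulators of respiratory genes had a median difference (KO minus WT) of -0.15 over 15 genes that passed the filter. Of these, 10 lay below 0 (66.7%, beside 55.1% of all genes). Tfb2m, a mitochondrial transcription factor, read 7.95 on the KO-labelled array and 6.83 on the WT-labelled array (1.12, 2.17-fold). Ppargc1b, a coactivator of mitochondrial gene expression, differed by 1.56 at weak signal, 5.78 on KO and 4.22 on WT, or 1.09-fold once the weak value was set to the array median. Its relative Ppargc1a read 8.28 on KO and 8.89 on WT (-0.61), and the related factor Tfb1m differed by 0.41.

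Fatty acid oxidation genes had a median of -0.03 over 15 genes, which lay above 0 after quantile normalisation (0.02) and loess (0.05). It also lay above 0 without shared probe sets (0.03) and with the filter at the 75th percentile (0.0015). Acadvl, a dehydrogenase of long-chain acyl-CoA, differed by -0.63, Hadha and Hadh by -0.55 and -0.53, and Cpt1a, which admits fatty acids to mitochondria, by 0.56. Among 9 carriers and related proteins the median was -0.02, and it turned sign after quantile normalisation and loess (0.04 each). Nnt, a transhydrogenase that makes mitochondrial NADPH, read 11.62 on KO and 12.21 on WT (-0.59). Gpd2, the mitochondrial glycerol-3-phosphate dehydrogenase, read 11.61 on KO and 11.93 on WT (-0.32), the ADP/ATP carrier Slc25a5 differed by 0.26 and the outer membrane channel Vdac3 by 0.17.

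Atpif1, the inhibitor of ATP synthase, is outside the rule by its symbol and read 10.27 on KO and 10.28 on WT (-0.01) at its strongest probe set. Ndufab1, a complex I subunit and acyl carrier protein that is also outside it, read 8.87 and 8.97 (-0.10).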
